A study of Oreochromis niloticus with 18 samples.

Results

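The thalamus-pituitary of tilapia treated with T3 was compared with the same tissue of untreated fish, in 4 of the 18 RNA-seq libraries of the series, namely all libraries labelled as thalamus-pituitary with T3 (2) or as thalamus-pituitary control (2). The fish were juvenile Nile tilapia (Oreochromis niloticus) aged 4 months. The treated fish were kept for 12 h in water with 25 nM T3 and the control fish received no hormone. Each library was made from the pooled tissue of 4 fish, so that differences between single fish cannot be seen and the spread between libraries is that between pools. The tissue block held the thalamus and the pituitary together, without separating cell types, and fewer cells of a type and less RNA per cell cannot be told apart in it. The 2 thalamus-pituitary libraries of fish kept with 25 nM T2 (3,5-diiodothyronine) for the same time and the cerebellum libraries of the same 3 conditions are used for comparison only.

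3,5,3′-triiodothyronine (T3) is the thyroid hormone with the highest affinity for the nuclear thyroid hormone receptors. These receptors sit on DNA, mostly as heterodimers with retinoid X receptors, and T3 binding exchanges corepressors for coactivators, so that some target genes rise and others, such as those of pituitary thyrotropin, fall. In the vertebrate brain, thyroid hormones are known as regulators of neural differentiation, myelination, neurite growth and synapse formation, and the pituitary and the brain above it close the feedback loop that sets the hormone's own production.

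Each library holds 1 effective count for each of 26763 transcripts, an estimated read count corrected for how much of the transcript's length could yield a fragment. The totals were 5639662 and 4928524 effective counts for controls 1 and 2 and 5793070 and 2915645 for T3 replicates 1 and 2, within the range of the whole series (1568851 to 6585242). Levels are given as CPM, that is effective counts relative to each library's total, scaled by TMM over the 12 brain libraries, and 1 count was worth 0.173 to 0.343 CPM in the 4 libraries. Gene names are those of the part of the study's gene list held here, which pairs 1646 transcripts with a symbol. Among them, 125 stand in it because the study had selected them in thalamus-pituitary, from these same libraries. Most of the genes named below were therefore already chosen on these data, and their number is not independent evidence. The other 1521 stand in it for cerebellum or liver alone, and the cerebellum came from the same fish. Below, "selected by the study" means selected in thalamus-pituitary, so members not selected still came from its lists for those tissues. Of the 1521, 1323 were tested, with a median log2 fold change of 0.0383. The shares of all transcripts given below are not restricted to them. The 11 pituitary hormone markers had no symbol there, so the label of the tissue could not be checked against them. A set of 39 cerebellum-enriched transcripts had a mean of at least 50 CPM in cerebellum and at least 20 times their thalamus-pituitary mean. They summed to between 0.984% and 4.46% of their mean cerebellum level in the 6 thalamus-pituitary libraries. Because they were chosen on these same libraries, a low mean sum follows from the choice and does not check the label.

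The question of the main comparison was which transcripts differ after T3. A single transcript, COX5B, passed edgeR's quasi-likelihood test at an adjusted p under 0.05, and it fell. This is 1 of 16996 transcripts tested (0.00588%), while 1576 (9.27%) had an unadjusted p under 0.05, 739 of them higher (4.35%) and 837 lower (4.92%). edgeR's exact test, which does not carry the uncertainty of each transcript's own spread into the p-value, called 127 of the same transcripts (0.747%), 44 higher (0.259%) and 83 lower (0.488%) with T3, and DESeq2 called 62 of the 1339 (4.63%) for which its filter on the mean count left an adjusted p, 13 higher (0.971%) and 49 lower (3.66%). Without that filter, DESeq2 called 42 of 23336. The counts rested in part on 1 library: without control 1 the quasi-likelihood test called 20 transcripts and the exact test 289. That fit has a single control, which is assumed to vary like the 2 T3 libraries.

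Across all tested transcripts the median log2 fold change was -0.00318, and its median size was 0.215. The median difference between single libraries was 0.24 for the 2 controls and 0.234 for the 2 T3 libraries, values that are not on the same footing as a difference between means of 2 libraries. In 7044 transcripts (41.4%) the T3 libraries and the controls did not overlap, with T3 above in 3369 (19.8%) and below in 3675 (21.6%). These shares are the background for the counts given below. In what follows, "called" names the test, and a transcript that passed only the exact test is described by its values.

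**Figure D1:**
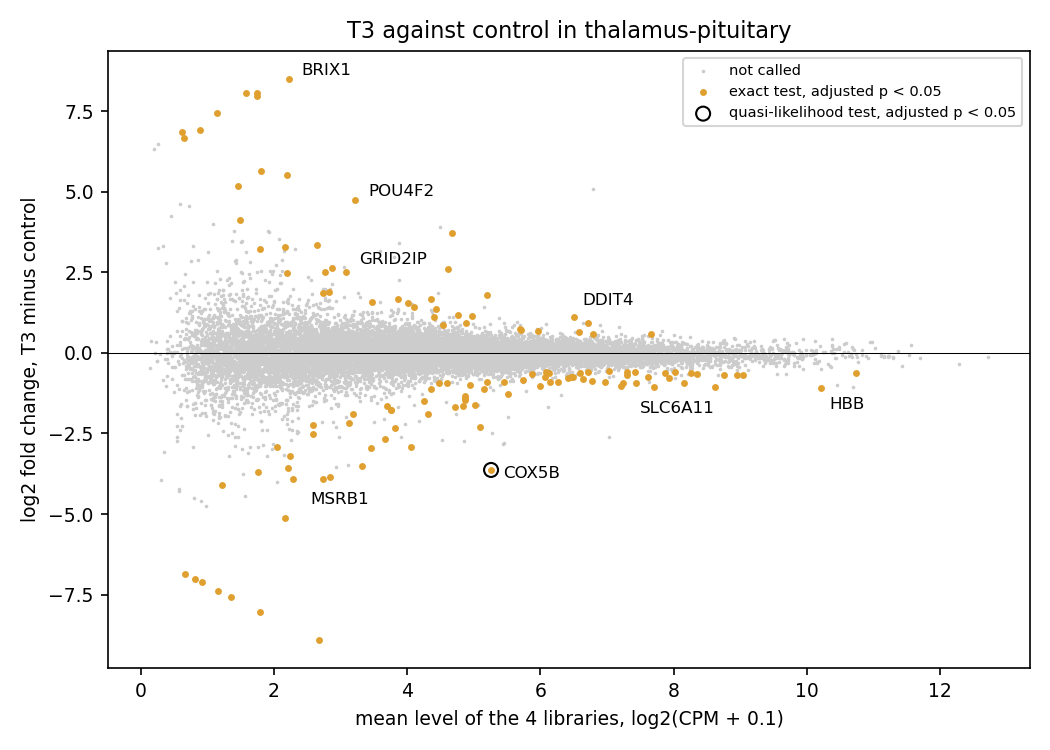
Log2 fold change (T3 minus control, quasi-likelihood fit) against the mean level of the 4 libraries in log2(CPM + 0.1) for the 16996 transcripts tested. Orange points are the 127 transcripts called by the exact test and the ringed point is COX5B, the transcript called by the quasi-likelihood test; fold changes beyond 6 on this scale belong to transcripts with no count in one group and depend on the prior count.

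COX5B encodes a nuclear-encoded subunit of cytochrome c oxidase, the terminal complex of the mitochondrial respiratory chain. Its transcript stood at 80.6 and 60.8 CPM in the controls and at 5.48 and 5.97 CPM with T3. Both T3 libraries were far below both controls, and the libraries within a group differed little. The log2 fold change was -3.63 (SE 0.24, adjusted p = 0.0268 by the quasi-likelihood test and 4.93e-30 by the exact test), a 12.4-fold lower level. With T2 the transcript was at 42.9 and 57.4 CPM. Its log2 fold change lay between -3.81 and -3.41 when each library was left out in turn, but the quasi-likelihood call was lost without T3 replicate 1 (adjusted p = 0.0646) and when no low-count filter was used (adjusted p = 0.0667).

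Most of the respiratory chain did not share this difference. Of the 23 tested transcripts of the respiratory chain and ATP synthase list, 1 was called lower and none higher by the quasi-likelihood test, 6 lay above both controls and 5 below them, and the list's median log2 fold change was 0.05, against -0.00318 for all transcripts. COX4I1, another subunit of cytochrome c oxidase, stood at 440.6 and 367.6 CPM in the controls and 567.3 and 535 CPM with T3, with a log2 fold change of 0.46 (adjusted p = 0.44 by the quasi-likelihood test, 0.201 by the exact test and 0.0191 by DESeq2). UQCRH, the hinge protein of complex III, was at 6.68 and 10.2 CPM in the controls and at 0.685 and 0.663 CPM with T3 (adjusted p = 0.295 by the quasi-likelihood test and 0.0021 by the exact test). COX19, a copper chaperone for cytochrome c oxidase assembly, was likewise low in both T3 libraries, at 0.685 and 1.33 CPM against 5.06 and 8.34 CPM, without passing either edgeR test. The summed level of the list was 2668 and 2343 CPM in the controls, against 2638 and 2391 CPM with T3, so the groups overlapped.

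Proteins of mitochondrial import lay mostly above or among the controls. Of 21 tested transcripts of that list, 7 lay above both controls and 1 below, with a median log2 fold change of 0.17, and 1 of the 21 had been selected by the study. Among the 20 not selected, 35% lay above and 0% below, while the shares of all transcripts were 19.8% and 21.6%. Few of these differences were large against their spread. Only 1 transcript higher and 1 lower reached an unadjusted p under 0.05 by the quasi-likelihood test. The exact test called 0 higher and 1 lower. The member below was TIMM8A, a small chaperone of the intermembrane space, at 8.49 and 9.35 CPM in the controls and 0.343 and 0.994 CPM with T3. Its T3 counts were 2 and 3, and the ratio of control to T3 was 15.8 (95% exact interval 6.51 to 49.7, counting error only). Its log2 fold change of -3.91 became -3.11 without T3 replicate 1 and -4.60 without T3 replicate 2. HSPA9, the mitochondrial Hsp70, was at 248.9 and 236.7 CPM in the controls and at 288.4 and 296.7 CPM with T3, which did not pass either edgeR test.

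COX5B shared its pattern with a set of other transcripts. SELK, a selenoprotein of the endoplasmic reticulum membrane, was at 35 and 23.6 CPM in the controls and 3.6 and 4.31 CPM with T3. BANF1, a chromatin protein of the nuclear envelope, was at 22.2 and 16.5 CPM against 2.74 and 1.99 CPM. For LAMTOR5, a subunit of the lysosomal Ragulator complex that recruits mTORC1, the level was 22.2 and 14.2 CPM in the controls, against 1.71 and 1.33 CPM with T3. MSRB1, a selenoprotein that reduces oxidized methionine, was at 12.5 and 12.2 CPM in the controls and 0.685 and 0.994 CPM with T3. All 4 were well separated between the groups, with log2 fold changes between -3.91 and -2.92, an adjusted p of 0.178 by the quasi-likelihood test and adjusted p-values between 1.23e-08 and 1.82e-06 by the exact test.

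The same transcripts separated untreated libraries as well. In cerebellum, COX5B stood at 1.81 CPM in control 1 and 48.2 CPM in control 2, 2 pools of fish without hormone. SELK was at 2.17 and 22.2 CPM, BANF1 at 1.45 and 28.5 CPM, LAMTOR5 at 0.906 and 21.4 CPM and MSRB1 at 0 and 12.6 CPM in these controls. Of the mitochondrial transcripts above, UQCRH was at 0.725 and 15.1 CPM and TIMM8A at 0.181 and 6.7 CPM in them. In each case control 1 was within or below the range of the 2 cerebellum libraries with T3, where COX5B was at 3.79 and 9.96 CPM. Of the 83 transcripts called lower by the exact test in thalamus-pituitary, 21 (25.3%) were more than 2-fold higher in cerebellum control 2 than in cerebellum control 1, against 5.62% of all tested transcripts, while the reverse held for 7 (8.43%) against 6.2%. Over the 8 brain libraries outside the comparison, the 100 transcripts most like COX5B had correlations with it between 0.834 and 0.986 on log2 CPM. Of these, 33 lay below both thalamus-pituitary controls (33%, against 21.6% of all transcripts) and 10 above (against 19.8% of all transcripts). Their median log2 fold change was -0.15. The exact test called 6 of the 100 lower and 2 higher, and 12 carry a symbol. Of these 12, RPS12, SELK, LAMTOR5, DYNLL1, BANF1, MSRB1 and COX19 had log2 fold changes between -3.91 and -2.61, KIF5B, TMEM41B, SHISA4 and DDIT3 between -0.12 and 0.27, and RNF145 of 1.43. What makes these libraries alike was not tested.

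A direct test of T3 against T2, which does not use the controls, called 10 of 16623 transcripts (0.0602%) by the quasi-likelihood test, all lower with T3, and 1037 (6.24%) had an unadjusted p under 0.05. The count was 17 without T2 replicate 1 and 32 without T2 replicate 2. The 5 with a symbol were RPS12, a protein of the small ribosomal subunit, DYNLL1, a dynein light chain, COX5B, SELK and BANF1. Across the 10, the mean of the T2 libraries was 7.33 to 14.1 times that of the T3 libraries. RPS12 was at 396.2 and 333.2 CPM with T2 and at 37.2 and 35.5 CPM with T3 (log2 fold change -3.31, SE 0.12, adjusted p = 0.000793 by the quasi-likelihood test). DYNLL1 was at 114 and 138.1 CPM with T2 and at 10.8 and 9.94 CPM with T3.

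The controls placed these 10 transcripts differently. RPS12 was at 50.6 CPM in control 1, close to the T3 libraries, and at 399.7 CPM in control 2, close to T2. DYNLL1 was at 12.8 and 139.9 CPM in the same 2 libraries. In 7 of the 10, control 1 was more than 4-fold lower than control 2, and the 3 in which both controls were high were COX5B, SELK and BANF1. In cerebellum, control 1 lay below both T2 libraries in all 10 and was more than 4-fold lower than control 2 in 9. RPS12 and DYNLL1 were also among the 20 transcripts that the quasi-likelihood test called without thalamus-pituitary control 1 (adjusted p = 0.000617 and 0.00125), a fit in which the single control is assumed to vary like the T3 libraries. RPS12 and DYNLL1 are singled out here because they were called between T3 and T2.

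**Figure D2:**
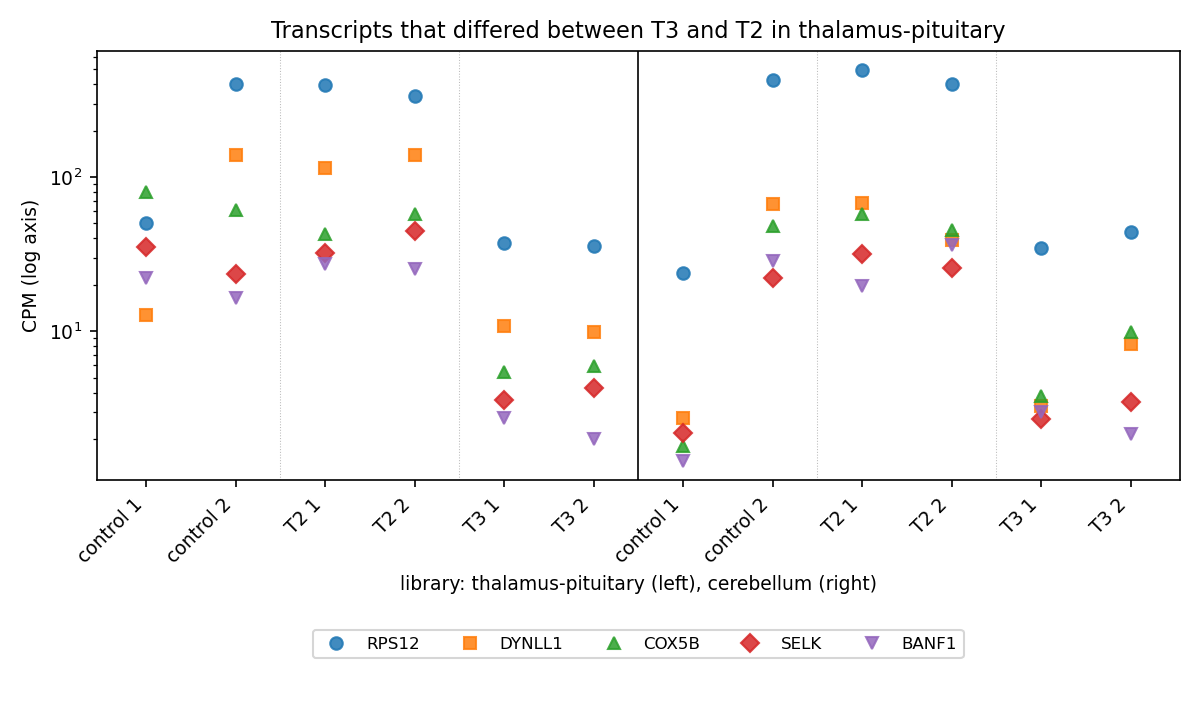
CPM (log axis) of the 5 named transcripts called between T3 and T2, in the 6 thalamus-pituitary libraries (left) and the 6 cerebellum libraries (right), 1 point per library and transcript. All 5 were low in the 4 T3 libraries and in cerebellum control 1 and high in the T2 libraries, and in thalamus-pituitary control 1 only RPS12 (50.6 CPM) and DYNLL1 (12.8 CPM) were low.

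The other transcripts with the smallest p-values fell into groups by function, and none of them passed the quasi-likelihood test with an adjusted p under 0.05. Among those higher with T3, the smallest p-value belonged to a transcription factor. POU4F2, a POU-domain factor best known from retinal ganglion cells and the midbrain of vertebrates, stood at 0.723 and 0.61 CPM in the controls, at 2.48 and 4.68 CPM with T2 and at 20.4 and 15.3 CPM with T3. The controls held only 4 and 3 counts, against 119 and 46 with T3. Its log2 fold change was 4.73 (SE 0.46, adjusted p = 0.134 by the quasi-likelihood test and 4.26e-11 by the exact test), the second smallest p-value of the named transcripts after COX5B. In cerebellum it was at 0 CPM in both controls and at 0.813 and 3.9 CPM with T3.

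Of 13 tested transcripts of the brain transcription factor list, 3 were called higher and 1 lower by the exact test and none by the quasi-likelihood test, 6 lay above both controls and 4 below, and 6 of the 13 were in the study's own thalamus-pituitary list. DMBX1, a homeobox factor of the midbrain, had no count in either control and was at 6.34 and 6.63 CPM with T3. Against a floor of 3 counts per library its mean with T3 was at least 11.2-fold higher. PRDM4, a zinc finger factor, was at 0.903 and 0.61 CPM in the controls and at 6.68 and 9.28 CPM with T3. BCL6, a transcriptional repressor, was at 11.9 and 5.29 CPM against 25.4 and 24.5 CPM, without passing either edgeR test. The list's median log2 fold change was -0.11, and of the 7 members that the study had not selected, 1 lay above both controls and 3 below.

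**Figure D3:**
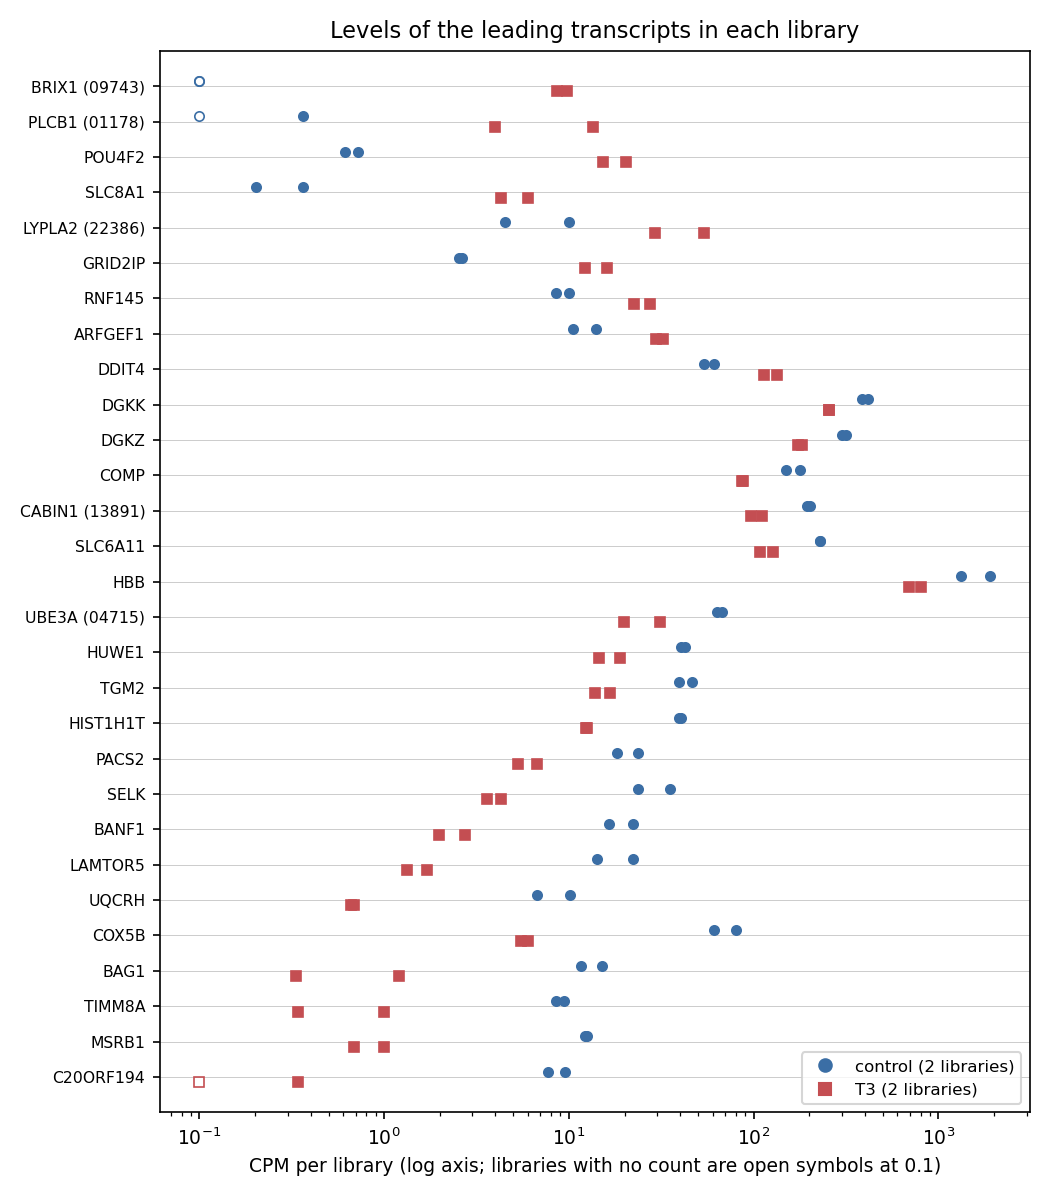
CPM per library (log axis) of 29 of the 30 transcripts with a symbol, the smallest p-values and both T3 libraries on the same side of both controls. Circles are the 2 controls and squares the 2 T3 libraries; the groups do not overlap because the transcripts were chosen for that, and the gap is widest where a group held few counts, as in BRIX1, PLCB1 and C20ORF194. Numbers in brackets beside a symbol are the last digits of the transcript identifier, and open symbols mark libraries with no count.

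Among genes of stress responses and growth control, DDIT4 was higher with T3. It encodes REDD1, an inhibitor of mTORC1 that is known to respond to stress and glucocorticoids. Its level was 60.9 and 53.7 CPM in the controls, 90.1 and 92.3 CPM with T2 and 113 and 133.6 CPM with T3, a 2.15-fold difference (log2 1.11, SE 0.14, adjusted p = 0.178 by the quasi-likelihood test and 6.33e-07 by the exact test). DDIT4 was also above both controls in cerebellum, at 143 and 132 CPM with T3 against 88.4 and 75.8 CPM. BAG1, a co-chaperone of Hsp70, was at 15.2 and 11.6 CPM in the controls and at 1.2 and 0.332 CPM with T3 (adjusted p = 1.06e-06 by the exact test), and its log2 fold change of -3.86 became -5.21 without T3 replicate 1. TGM2, a transglutaminase that crosslinks proteins, was at 39.4 and 46.2 CPM in the controls and at 16.6 and 13.9 CPM with T3, and T2 gave 7.45 and 21.8 CPM.

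Chromatin and ribosome genes were also among the leading transcripts. HIST1H1T, named as a linker histone, stood at 40.5 and 39.6 CPM in the controls and at 12.3 and 12.6 CPM with T3. This was 3.2-fold lower, with little spread in either group, and T2 gave 18.1 and 22.4 CPM. As a member of a multigene family its reads could be shared with close copies, and its level is uncertain to that extent. It was lower in cerebellum too, at 47.5 and 49 CPM in the controls and 17.9 and 18 CPM with T3. One transcript of BRIX1, a factor of large ribosomal subunit assembly, had no count in either control. It was at 5.42 and 5.7 CPM with T2 and at 9.76 and 8.62 CPM with T3. Against the floor of 3 counts per library, this was at least 15.9-fold higher by the mean of the T3 libraries and 14.9-fold by the lower of them. The cytosolic ribosomal proteins themselves gave no such difference: of 24 tested transcripts, 3 lay above both controls and 5 below, none was called by either edgeR test, and their summed level was 12850 and 11910 CPM in the controls, against 12900 and 11560 CPM with T3 (median log2 fold change -0.14).

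Synaptic genes included a GABA transporter among the leading transcripts. SLC6A11, which clears GABA from the extracellular space, was at 227.8 and 227.7 CPM in the controls, at 155 and 135 CPM with T2 and at 109 and 128 CPM with T3. The difference was 1.92-fold (log2 -0.94, SE 0.12, adjusted p = 0.178 by the quasi-likelihood test, 2.43e-06 by the exact test and 8.2e-06 by DESeq2). In cerebellum the T3 libraries, at 94.9 and 184 CPM, lay on both sides of the controls (125 and 109 CPM). The interaction of T3 with region did not pass the quasi-likelihood test (adjusted p = 1). SNAP25, a SNARE protein of synaptic vesicle fusion, had its main thalamus-pituitary transcript at 1850 and 2303 CPM in the controls and at 1389 and 1285 CPM with T3 (log2 fold change -0.63, SE 0.15, adjusted p = 0.415 by the quasi-likelihood test, 0.0426 by the exact test and 0.00014 by DESeq2).

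YWHAG, a phosphoserine-binding adaptor abundant in neurons, was at 561.6 and 511.5 CPM in the controls and at 350.1 and 309.2 CPM with T3. HOMER1, a scaffold of the postsynaptic density, was at 99.2 and 122.4 CPM against 71.4 and 59 CPM. One transcript of STXBP5, which binds syntaxin and restrains vesicle fusion, was at 45.9 and 49.4 CPM in the controls and 22.4 and 29.5 CPM with T3. These 3 were separated between the groups and passed the exact test (adjusted p between 0.00191 and 0.0299) but not the quasi-likelihood test. Of 27 tested transcripts of the synapse list, 7 lay above both controls and 10 below, 1 was called higher and 5 lower by the exact test, and the median log2 fold change was -0.21. Of the 18 that the study had not selected, 5 lay above and 5 below (27.8% each), and of the 9 that it had, 2 lay above and 5 below.

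The member called higher was GRID2IP, known as a partner of the delta2 glutamate receptor of cerebellar Purkinje cells. It stood at 2.53 and 2.64 CPM in the controls and at 16.1 and 12.3 CPM with T3 in thalamus-pituitary, and between 230 and 295 CPM in cerebellum. Another transcript of this kind was FAT2, a protocadherin of cerebellar granule cells, at 4.33 and 2.24 CPM in the controls and at 22.4 and 72.9 CPM with T3, against 1583 to 2315 CPM in cerebellum. The second SNAP25 transcript, with 785 to 1922 CPM in cerebellum, was at 6.68 and 10.4 CPM in the controls and 14 and 19.6 CPM with T3. The summed level of the 39 cerebellum-enriched transcripts was 237.4 and 231 CPM in the thalamus-pituitary controls, 329.4 and 421.6 CPM with T3, and 916.8 and 202.2 CPM with T2. Of the 27 that were tested, 12 lay above both controls and 3 below, with a median log2 fold change of 0.33. Over all tested transcripts, 19.8% lay above and 21.6% below. The set was chosen on means that include these libraries. The part of cerebellar tissue in these values was not tested.

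Genes of the neuronal cytoskeleton and of axon growth lay mostly lower with T3. Of 30 tested transcripts, 17 were below both controls and 3 above, 9 were called lower and none higher by the exact test, and the median log2 fold change was -0.22. Since 14 of the 30 had been selected by the study on these libraries, the count is not independent evidence. Among the other 16, 5 lay below (31.2%, against 21.6% of all transcripts) and 2 above, with a median of -0.08.

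GAP43, a protein of growth cones, was at 214.6 and 349.3 CPM in the controls and 132.2 and 134.6 CPM with T3. MAPT, the microtubule-binding protein tau, was at 176.7 and 212.3 CPM against 117.2 and 126 CPM. RGMA, a repulsive guidance molecule for axons, was at 17 and 27.7 CPM in the controls and at 4.62 and 1.33 CPM with T3. One transcript of MAP2, a microtubule-associated protein of dendrites, was at 44.8 and 37.4 CPM in the controls, 51 and 56.3 CPM with T2 and 20.4 and 20.2 CPM with T3. All 4 passed the exact test (adjusted p between 0.000444 and 0.0122), with adjusted p-values between 0.302 and 0.388 by the quasi-likelihood test. MYH10, a non-muscle myosin, was an example of the other direction, with 1 transcript at 165.1 and 140.5 CPM in the controls and 216.8 and 226.4 CPM with T3, which passed neither edgeR test but passed DESeq2 (adjusted p = 0.0245).

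Glial markers gave a mixed picture on small numbers. Of 9 tested transcripts, 5 lay below both controls and 1 above, with a median log2 fold change of -0.44, and 3 of the 9 had been selected by the study. Of the other 6, 3 lay below (50%, against 21.6% of all transcripts) and 1 above, with a median of -0.23. SPARCL1, a matricellular protein made by astrocytes, was at 32.9 and 52.3 CPM in the controls and at 16.6 and 14.9 CPM with T3. It passed the exact test (adjusted p = 0.00191), and T2 gave 16.7 and 14.8 CPM. KCNJ10, the glial inward rectifier potassium channel, was at 3.61 and 3.05 CPM and had no count with T3, at least 4.41-fold lower by the mean of the controls. SLC1A2, the main glial glutamate transporter, was at 2596 and 2358 CPM in the controls and 2400 and 2204 CPM with T3, so the groups overlapped. The member above both controls was SLC1A3, another glutamate transporter, at 57.8 and 47.2 CPM against 67.5 and 65.6 CPM. It passed neither edgeR test.

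Calcium and lipid signalling supplied several of the leading transcripts. CABIN1, which inhibits the calcium-dependent phosphatase calcineurin, had a transcript at 202 and 194 CPM in the controls, 126 and 112 CPM with T2 and 96.4 and 111 CPM with T3. It was 1.91-fold lower (log2 -0.93, SE 0.12, adjusted p = 0.178 by the quasi-likelihood test, 2.23e-06 by the exact test and 1.6e-05 by DESeq2), and in cerebellum the same transcript was at 245 and 312 CPM in the controls and 105 and 102 CPM with T3. SLC8A1, the sodium-calcium exchanger, was at 0.361 and 0.203 CPM in the controls, that is 2 and 1 counts, and at 6 and 4.31 CPM with T3, a ratio of 18.9 (95% exact interval 6.09 to 94.8). ITPR3, a calcium release channel opened by inositol trisphosphate, was at 10.1 and 9.96 CPM against 38 and 23.2 CPM.

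PLCB1, a phospholipase C that makes inositol trisphosphate and diacylglycerol, had 2 transcripts in opposite directions. The abundant one was at 321.5 and 430.6 CPM in the controls and at 186.5 and 205.2 CPM with T3, while the other was at 0.361 and 0 CPM in the controls and at 13.5 and 3.98 CPM with T3. T2 gave 15.8 and 5.69 CPM for the latter. The fitted log2 fold change of the latter was 5.53, and 4.70 without control 2 or 8.52 without control 1, where the remaining control had no count. The supplement pairs these 2 transcripts with different gene identifiers. Over the calcium list, 14 transcripts were tested, 6 lay above both controls and 5 below, and the median log2 fold change was -0.00224. The exact test called 3 higher and 4 lower, and 8 of the 14 had been selected by the study. Of the other 6, 3 lay above (50%, against 19.8% of all transcripts) and 1 below (16.7%, against 21.6%).

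DGKZ and DGKK, kinases that remove diacylglycerol by phosphorylation, were among the leading transcripts. DGKZ was at 301.7 and 314.1 CPM in the controls and at 174.4 and 181.6 CPM with T3 (log2 fold change -0.78, SE 0.11, adjusted p = 0.196 by the quasi-likelihood test and 7.4e-06 by DESeq2). DGKK stood at 384.4 and 417.6 CPM in the controls against 255 and 254.6 CPM with T3 (adjusted p = 0.295 by the quasi-likelihood test). The groups did not overlap in either, and neither passed the quasi-likelihood test. Over the list of lipid and sterol enzymes and carriers, 27 transcripts were tested, 7 lay above both controls and 10 below. The median log2 fold change was 0.02, the exact test called 2 higher and 5 lower, and 11 had been selected by the study. Of the other 16, 3 lay above and 3 below (18.8% each, against 19.8% and 21.6% of all transcripts).

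Several ubiquitin ligases were among the leading transcripts, in both directions. HUWE1, a large HECT-domain ligase, was at 42.6 and 40.3 CPM in the controls and at 14.6 and 18.9 CPM with T3 (adjusted p = 6.90e-05 by the exact test). RNF145, a ligase of the endoplasmic reticulum membrane that takes part in the turnover of HMG-CoA reductase, was at 8.49 and 9.96 CPM in the controls and at 22.6 and 27.5 CPM with T3. FBXL6, an F-box protein, had no count in the controls and was at 7.71 and 5.3 CPM with T3, which was at least 11.2-fold higher. Of 34 tested transcripts of the ubiquitin list, 14 lay above both controls and 10 below, with a median log2 fold change of 0.11. The exact test called 3 higher and 4 lower, and 9 of the 34 had been selected by the study. Of the other 25, 9 lay above (36%, against 19.8% of all transcripts) and 6 below (24%, against 21.6%).

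UBE3A, another HECT-domain ligase, and LYPLA2, an enzyme that removes fatty acids from proteins, each had 2 transcripts of the same gene on opposite sides of the controls. UBE3A transcript ENSONIT00000004715 was at 63.4 and 67.1 CPM in the controls, 37 and 31.9 CPM with T2 and 31.2 and 19.9 CPM with T3. In turn, ENSONIT00000004714 was at 24.7 and 7.32 CPM in the controls, 54.4 and 59.2 CPM with T2 and 55.2 and 59.3 CPM with T3. The log2 fold change of the latter, 1.81, was 2.97 without control 1 and 1.22 without control 2. Their sum was 88.2 and 74.4 CPM in the controls, against 86.3 and 78.9 CPM with T3 (log2 fold change 0.04, SE 0.14, adjusted p = 0.952 by the quasi-likelihood test). LYPLA2 transcript ENSONIT00000022386 was at 4.52 and 9.96 CPM against 53.8 and 29.2 CPM with T3, and ENSONIT00000022387 at 67.9 and 83 CPM against 24.3 and 45.4 CPM. The sum was 72.4 and 92.9 CPM in the controls, against 78.3 and 74.6 CPM with T3. In both genes the groups were apart for each transcript and overlapped for the sum. The log2 fold change of ENSONIT00000022386, 2.61, was 3.26 without control 2.

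By contrast, the 2 transcripts of CABIN1 were both lower with T3, and their sum was 252.5 and 240.5 CPM in the controls, against 107.7 and 132.9 CPM with T3 (log2 fold change -1.04, SE 0.13, adjusted p = 0.172 by the quasi-likelihood test and 1.12e-06 by the exact test). BRIX1 summed to 12.8 and 14.6 CPM in the controls and 23.5 and 28.2 CPM with T3 (adjusted p = 0.442 by the quasi-likelihood test), of which the transcript with a count in both groups made 13.9 and 19.9 CPM with T3. How reads were divided between overlapping transcripts of a gene was estimated by the authors' software, and a level of 1 such transcript carries that uncertainty.

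**Figure D4:**
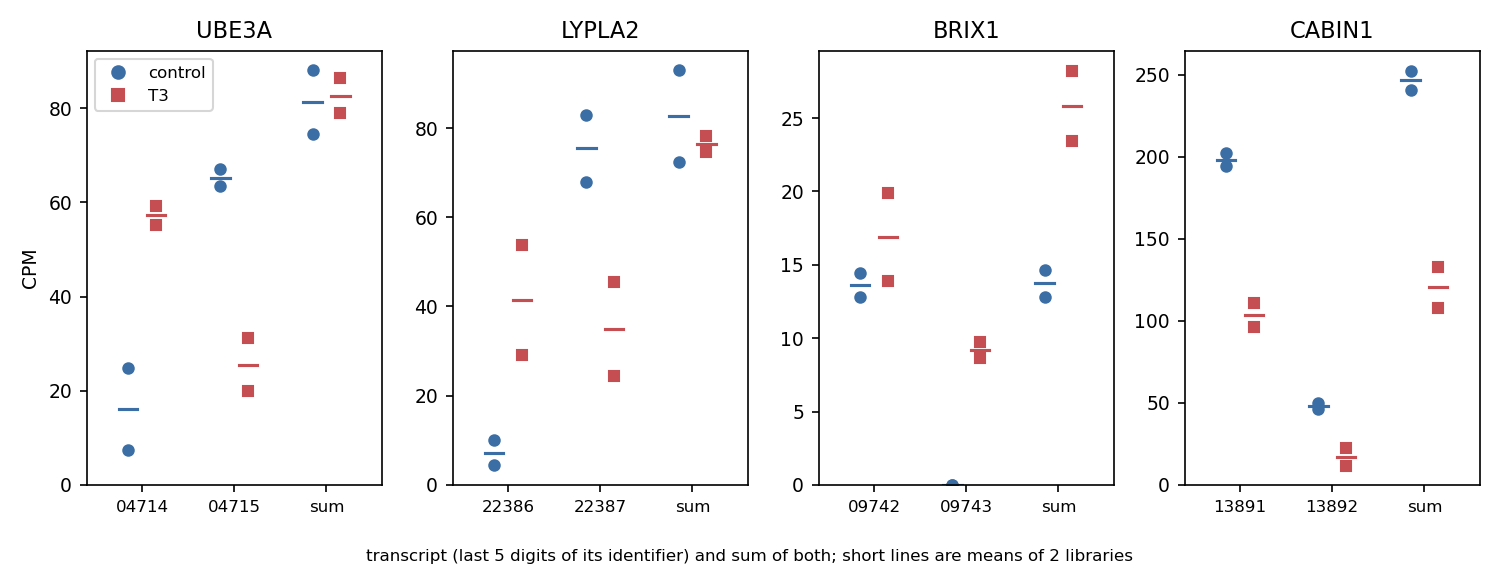
CPM per library of the 2 transcripts of UBE3A, LYPLA2, BRIX1 and CABIN1 and of their sum, with controls as circles, T3 libraries as squares and short lines for the means of 2 libraries. The transcripts of UBE3A and LYPLA2 lay on opposite sides with sums that overlapped, those of CABIN1 were both lower, and for BRIX1 the sum was higher, at 23.5 and 28.2 CPM against 12.8 and 14.6 CPM.

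RNA processing genes had no common direction. THOC1, a subunit of the complex that couples transcription to mRNA export, was at 23.1 and 15.9 CPM in the controls and at 42.6 and 43.1 CPM with T3 (adjusted p = 0.00254 by the exact test). Of 27 tested transcripts of the list, 9 lay above both controls and 9 below, and the median log2 fold change was -0.01. The exact test called 1 higher and 4 lower, and 6 of the 27 had been selected by the study. Of the other 21, 7 lay above (33.3%, against 19.8% of all transcripts) and 5 below (23.8%, against 21.6%).

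ARFGEF1, an exchange factor for the ARF GTPases of the Golgi, was at 10.5 and 14 CPM in the controls. It was at 31.6 and 33.8 CPM with T2 and at 32.4 and 29.5 CPM with T3. PACS2, a sorting protein of contacts between the endoplasmic reticulum and mitochondria, was at 23.7 and 18.3 CPM against 6.68 and 5.3 CPM. C20ORF194 was at 9.57 and 7.73 CPM in the controls and had 2 counts and none with T3, a ratio of control to T3 of 38.5 (95% exact interval 10.4 to 323). Its fitted log2 fold change, -5.11, was -8.29 without T3 replicate 1, where no count with T3 remained. Among transcripts without a symbol, ENSONIT00000018464 was at 7.59 and 5.9 CPM in the controls and 19.9 and 24.5 CPM with T3, and ENSONIT00000020012 was at 186 and 211 CPM against 93.9 and 98.1 CPM. The groups did not overlap in any of these 5, and each passed the exact test but not the quasi-likelihood test. In the untreated cerebellum controls, C20ORF194 was at 0 and 12.6 CPM and ENSONIT00000020012 at 6.88 and 113.6 CPM. ARFGEF1 (7.25 and 14.7 CPM), PACS2 (11.6 and 13 CPM) and ENSONIT00000018464 (5.62 and 4.19 CPM) were closer between these controls. With T2 in thalamus-pituitary, ENSONIT00000018464 was at 19 and 17.9 CPM.

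Immediate-early genes, which neurons transcribe quickly after activity and which also respond to handling, lay mostly lower. Of 17 tested transcripts, 10 were below both controls and 2 above, and the median log2 fold change was -0.61, against -0.00318 for all transcripts. The study had selected 2 of the 17 in thalamus-pituitary. Of the other 15, which it listed for cerebellum or liver, 8 lay below (53.3%, against 21.6% of all transcripts) and 2 above, with a median of -0.56. None was called by the quasi-likelihood test, 6 had an unadjusted p under 0.05 and a lower level, and 1 passed the exact test.

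That one was a transcript of JUNB, an AP-1 factor, at 129 and 153.5 CPM in the controls and 68.7 and 87.8 CPM with T3 (adjusted p = 0.00438 by the exact test). FOS, its partner in AP-1, was at 88 and 134.2 CPM in the controls and 30.7 and 63 CPM with T3. NPAS4, a factor induced by neuronal depolarization, was at 124.3 and 203.1 CPM against 87.4 and 108.7 CPM, and EGR1 at 216.6 and 291.8 CPM against 132.8 and 201.2 CPM. All 4 were also uneven within the T2 group, where FOS was at 26.4 and 90.1 CPM and NPAS4 at 58 and 147.5 CPM. They were lower with T3 in cerebellum too, with log2 fold changes of -2.79 for FOS, -2.49 for EGR1, -2.20 for JUNB and -1.56 for NPAS4. The untreated cerebellum controls were uneven as well, with FOS at 36.8 and 103.5 CPM and NPAS4 at 78.6 and 260.6 CPM. ATF4, a factor of the integrated stress response, was on the other side, at 382.4 and 385.9 CPM in the controls and 455.6 and 484.6 CPM with T3.

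**Figure D5:**
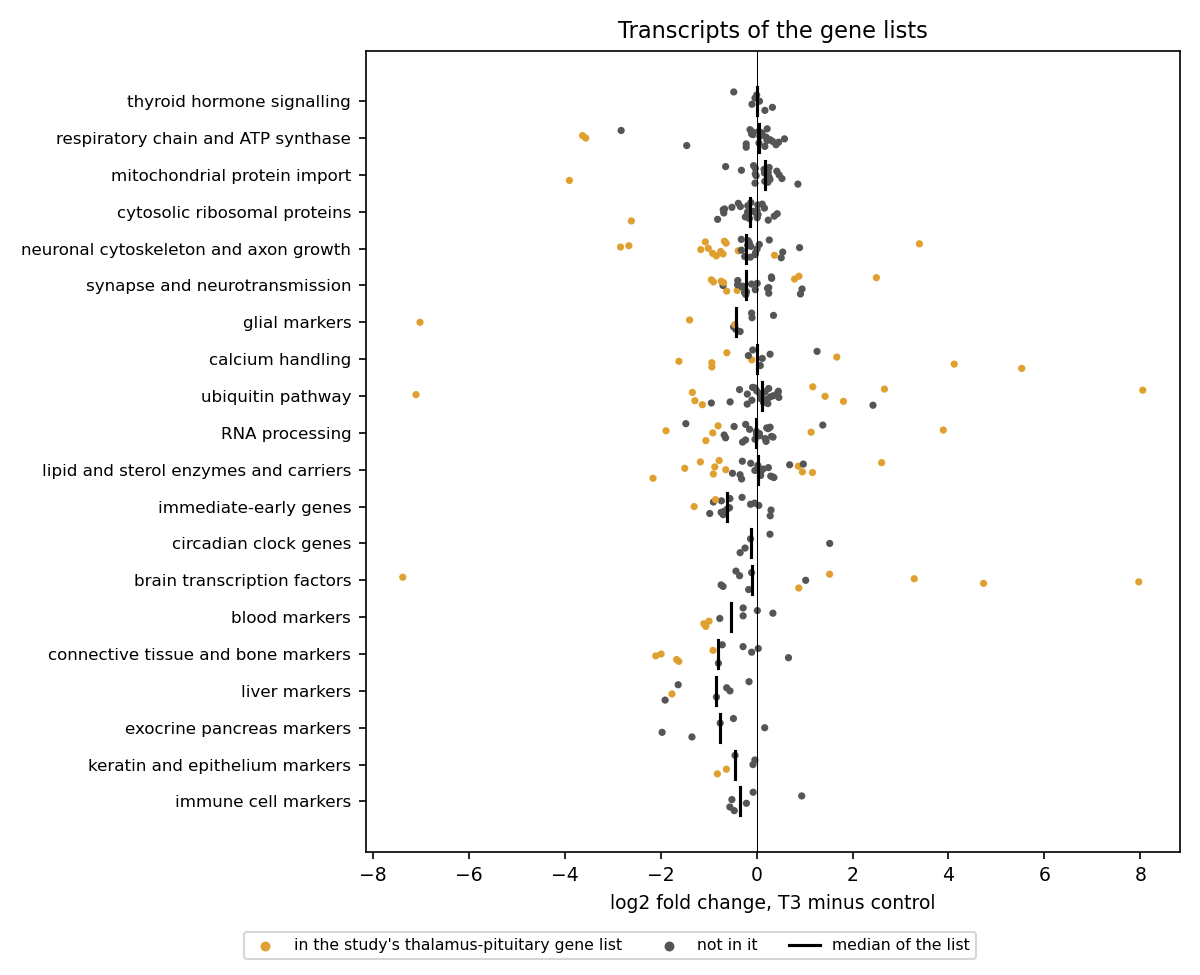
Log2 fold change (T3 minus control) of each tested transcript of the 20 gene lists with tested members, with the list's median as a black bar. Orange points are transcripts in the study's own thalamus-pituitary list, which was made from these libraries, and dark grey points are not in it; values beyond 6 belong to transcripts with no count in one group. The lowest medians were those of liver (-0.84), connective tissue and bone (-0.80) and exocrine pancreas (-0.76) markers and of the immediate-early genes (-0.61), while thyroid hormone signalling (0.000574) and the respiratory chain (0.05) centred on 0 apart from single transcripts.

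Some markers of tissues that a dissected brain sample can carry along were lower in both T3 libraries than in both controls. None of them passed the quasi-likelihood test. HBB, a beta globin, was at 1906 and 1332 CPM in the controls, 793.5 and 858.2 CPM with T2 and 805.2 and 691.8 CPM with T3, a 2.15-fold lower level (log2 -1.10, SE 0.19, adjusted p = 0.295 by the quasi-likelihood test, 0.000167 by the exact test and 6.6e-08 by DESeq2). Globins share sequence with one another, so that reads of close copies could be divided between them. ALAS2, the first enzyme of haem synthesis in red cells, was at 111.1 and 71 CPM against 53.6 and 52.7 CPM. Of 8 tested blood marker transcripts, 5 lay below both controls and none above, 3 of the 8 had been selected by the study, and the summed level of the list was 7873 and 4635 CPM in the controls, against 3180 and 3297 CPM with T3. Of the 5 that the study had not selected, 2 lay below (40%, against 21.6% of all transcripts), with a median of -0.28.

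The connective tissue and bone markers summed to 755.6 and 416.2 CPM in the controls and 277.1 and 376.5 CPM with T3, and 4 of 11 tested lay below both controls and 1 above (median log2 fold change -0.80, 5 of the 11 selected by the study). Of the 6 that the study had not selected, 2 lay below (33.3%, against 21.6% of all transcripts) and 1 above, with a median of -0.19. COMP, a cartilage matrix protein, was at 150 and 179 CPM in the controls and at 87.5 and 86.2 CPM with T3 (adjusted p = 3.97e-05 by the exact test). COL1A2, a chain of type I collagen, was at 40.6 and 16.1 CPM against 4.11 and 10.9 CPM. It did not pass the exact test (adjusted p = 0.152). Both transcripts of COL1A1, another chain of that collagen, overlapped between the groups. They were at 80.9 and 17.9 CPM against 11.3 and 23.5 CPM, and at 167.3 and 38.2 CPM against 15.4 and 55.7 CPM. COL10A1 was at 138.7 and 0 CPM in the controls and at 0 and 44.4 CPM with T3, which separated libraries within each group. Blood and connective tissue sums were both highest in control 1, as were the keratin and epithelium and the immune cell sums given below. Liver and exocrine pancreas sums were highest in control 2.

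Markers of other organs were weakly detected, and only those of liver and exocrine pancreas had sums that were lower in both T3 libraries than in both controls. Liver markers summed to 75 and 82.8 CPM in the controls and 45.6 and 47.1 CPM with T3 (5 of 7 tested below both controls, none above, median -0.84), and exocrine pancreas markers to 50.6 and 54.9 CPM against 30.1 and 31.5 CPM (4 of 5 below, none above, median -0.76). Keratin and epithelium markers summed to 310.5 and 118.7 CPM in the controls and 128.6 and 228.4 CPM with T3 (1 of 5 below, none above, median -0.45), with KRT20 at 105.5 CPM in control 1 and 75.6 CPM in T3 replicate 2 and under 6 CPM in the other 2. Immune cell markers were at 143.2 and 81.7 CPM against 114.8 and 102.4 CPM (2 of 6 below, 1 above, median -0.34). Over all tested transcripts, 21.6% lay below both controls and 19.8% above. Among members not selected by the study, 4 of 6 liver and 4 of 5 exocrine pancreas transcripts lay below and none above. For keratin and epithelium, 1 of 3 such members lay below and none above, and for immune cells 2 of 6 below and 1 above. With 5 to 7 tested transcripts per list, single members weigh heavily in these counts. The part of these tissues in the differences described above was not tested.

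Genes of the hormone's own pathway did not stand out. Of the 32 symbols of the thyroid hormone signalling list, 7 were paired with a transcript and all 7 were tested. The receptors THRA and THRB and the deiodinases were not among them. No member passed either edgeR test or had an unadjusted p under 0.05, 2 lay above both controls and 1 below, and the median log2 fold change was 0.000574. RXRB, a heterodimer partner of the receptors, was at 40.8 and 40.3 CPM in the controls and at 48 and 54 CPM with T3. The corepressor NCOR1 was at 113.1 and 124 CPM against 116.1 and 119.7 CPM, with overlapping groups. Among 5 circadian clock genes 1 lay above both controls and 1 below (median -0.13). The one above was ARNTL2, a partner of CLOCK, at 4.16 and 2.03 CPM against 8.91 and 9.28 CPM.

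CNDP1, the symbol of a dipeptidase that cleaves carnosine and related dipeptides, was at 6.14 and 6.1 CPM in the controls, at 2.71 and 5.49 CPM with T2 and at 4.62 and 426 CPM with T3. The high level was confined to 1 of the 4 libraries, T3 replicate 2. The fitted log2 fold change of 5.08 (SE 1.73, adjusted p = 0.48 by the quasi-likelihood test) became -0.39 without that library. In cerebellum the transcript was at 7.07 and 2.93 CPM in the controls and 37.9 and 15.8 CPM with T3. For anserinase, taken here to be this gene, the study reported a T3 rise in thalamus-pituitary by RT-qPCR in separately treated fish. Those measurements are not part of the libraries used here.

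Finally, the T3 difference in thalamus-pituitary was set against that in cerebellum, which uses other libraries but not other fish. By the study's methods, the pools of each brain region together held as many fish as each experimental group had. Both regions of a group therefore came from the same fish and shared their handling. Agreement between the regions is thus not independent evidence of a hormone effect. Which fish of a group went into which pool is not stated. By the quasi-likelihood test no transcript of 15770 was called for T3 in cerebellum, where 1820 (11.5%) had an unadjusted p under 0.05. The same test called no transcript of 17771 for the interaction of T3 with region, where 774 (4.36%) had an unadjusted p under 0.05 and DESeq2 called 6. The responses are thus not shown to differ between the regions for any named gene by the main test. Of the 127 transcripts called by the exact test in thalamus-pituitary, 102 were also tested in cerebellum and 79 of these (77.5%) had a fold change of the same sign, against 63.3% of the 15196 transcripts tested in both regions.

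Of the 30 leading transcripts with a symbol, 11 had both cerebellum T3 libraries on the same side of both cerebellum controls as in thalamus-pituitary, 18 overlapped there and 1 lay on the opposite side. Among the 11 were POU4F2, HIST1H1T, DDIT4, CABIN1, TGM2, LYPLA2, ARFGEF1, PLCB1, DGKK and HBB. PACS2 was the 1 on the opposite side, at 11.6 and 13 CPM in the cerebellum controls and 13 and 13.4 CPM with T3, a difference within the spread of the controls. COX5B, SELK, BANF1, LAMTOR5 and MSRB1 were among the 18, because cerebellum control 1 was as low as the T3 libraries.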

How the data were processed

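Libraries of pooled thalamus-pituitary were compared between T3 and control, with T2 and cerebellum libraries for reference. The authors checked reads with FastQC, mapped them with Bowtie 1.1.2 to the tilapia coding sequences (Ensembl, Orenil1.0) and quantified transcripts with eXpress 1.5. The deposited values are its expected counts in the form of effective counts, corrected for how much of a transcript's length could yield a fragment. This length is smallest in short coding sequences, so their values depend most on the fragment size. No normalization between libraries had been applied. The authors also deposited 6 edgeR tables of their own comparisons (log2 fold change, log2 CPM, p-value and false discovery rate), which were not used.

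Effective counts were rounded, filtered with filterByExpr (minimum count 10, minimum total 15), scaled by TMM and tested in the 4 libraries with the quasi-likelihood test of edgeR 4.0.16 (non-legacy fit) in R 4.3.3. Benjamini-Hochberg adjustment ran over all transcripts tested, with a threshold of 0.05. Standard errors are the log2 fold change divided by the root of the F statistic. Printed CPM used TMM factors of the 12 brain libraries, and log2 CPM for likeness to COX5B a prior count of 2. The alternatives were edgeR's exact test, DESeq2 1.42.0, the legacy fit, no filter, RLE or total scaling, all 6 libraries of the tissue, unrounded counts, transcripts summed by gene, a replicate block and leaving out each library. Chosen after seeing the data were DESeq2 without its filter on the mean count, leaving out libraries in the exact test, and the cerebellum-enriched set. Fits were also run on simulated data in which all transcripts had the same dispersion (spread beyond counting error). Such data cannot show how the tests treat spread that differs between transcripts. Intervals and floors (3 counts per library) cover counting error only, and depth was 2915645 to 5793070 effective counts per library. The intervals treat rounded effective counts as reads, although these are scaled for length. They can therefore be too narrow, most of all for short coding sequences. The edgeR and DESeq2 tests, including the call of COX5B, took the same effective counts as if they were reads. What this scaling does to their p-values was not tested. A fold given as at least sets the mean of the group with counts against the floor and leaves out the error of that mean.

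The comparison, the gene lists and the tests were chosen with earlier results of these data known. Named are every transcript past the threshold, the 30 with a symbol and the smallest p-values whose T3 libraries lie on the same side of both controls, 2 without a symbol in each direction at most, SNAP25 and CNDP1, list members as counts with examples, and further transcripts of a named symbol. The examples are the members with the smallest p-values, to which well-known members were added after their values were seen, as were RPS12, DYNLL1 and FAT2. Symbols came only from the part of the study's supplement held here, because none of the 42644 genes of the RefSeq table carries an Ensembl identifier. Nothing in the labels says that a replicate number is shared between groups, and p-values measure the spread between these pools. Single results for some genes are not reported here, while counts and medians include them. No sequence is shown because none was in the sources used here.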

Additional observations from a re-analysis of the deposited data

How the results depend on the processing

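With 2 libraries per group, the count of called transcripts depended on the test. Against 1 transcript by the quasi-likelihood test, the exact test called 127 after the same filter and 95 without it, DESeq2 62 (42 without its filter on the mean count), the quasi-likelihood test without a low-count filter 0 (1792 with an unadjusted p under 0.05), and the legacy fit, RLE scaling, total scaling, all 6 libraries of the tissue, unrounded counts and summed transcripts 1 each. The replicate block called 2, COX5B (adjusted p = 0.00508) and CNDP1, but the control and T3 libraries of the same number deviated together only weakly (correlation 0.163, 2 pairs), the labels do not pair them, and a call under the block that rests on 1 library is not a replicated difference. Leaving out 1 library gave 2 to 20 calls by the quasi-likelihood test (20 without control 1, 2 without control 2 and 4 without either T3 library) and 85 to 289 by the exact test, of which 38 to 77 were among the 127. The log2 fold change of COX5B was -3.81 to -3.41 when a library was left out and -3.64 without the low-count filter.

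For T3 against T2, 10 calls became 50 by DESeq2, 9 to 32 when a library was left out, 13 under the replicate block, 11 with RLE or total scaling and 9 without a low-count filter, and these 9 were among the 10. The interaction of T3 with region gave 0 calls, 6 by DESeq2 and 0 to 1 when a library was left out (1 without cerebellum T3 replicate 2, thalamus-pituitary control 2 or thalamus-pituitary T3 replicate 1). The share of transcripts with groups that do not overlap was 41.4%, or 41.8% by library totals. The direction of the 42 named transcripts that were tested held under every alternative except for 3: LYPLA2 (-0.10) and UBE3A (0.0373) reversed when the transcripts of a gene were summed, since their transcripts lie on opposite sides, and CNDP1 without T3 replicate 2 (-0.39 to 6.13 over the libraries left out). Of these 42, the exact test called 38 and the replicate block changed no call other than that of CNDP1. For transcripts with few or no counts in a group, depth limits the report to a ratio with its counting interval or to a lower bound. Where 1 library was left out, the group with a single library was assumed to vary like the other.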
